A study of Mus musculus with 6 samples.

Results

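The genes described here are 10 regulators and markers of epithelial to mesenchymal transition: Snai1, Snai2, Zeb1, Zeb2, Twist1, Prrx1, Vim, Cdh2, Cdh1 and Epcam. They were chosen by gene name, each matched 1 row of a table of 55487 genes, and all 6 libraries of that table were used. The libraries are bulk RNA sequencing of mouse lung tumours of the model that the labels call KP. The control guide, sgNeo, left Lkb1 (gene symbol Stk11) wild type, and the guide sgLkb1 gave tumours mutant for it. Both groups were collected 11 weeks after initiation, and cells positive for GFP and negative for the leukocyte antigen CD45 were sorted from digested lung. There were 3 libraries per group, numbered 1 to 3 as in their labels (sgNeo 1, sgLkb1 1 and so on), and where 3 values of a group are listed they are in that order. The sources used here name no mouse strain, age or initiating vector. Nothing states that replicates came from separate animals, so p-values measure the spread between these libraries, which may be technical.

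In epithelial to mesenchymal transition a cell attached to its neighbours loosens its junctions and takes on a motile form. Zinc-finger proteins of the SNAI and ZEB families, the basic helix-loop-helix protein TWIST1 and the homeobox protein PRRX1 drive it. SNAI and ZEB proteins bind E-box DNA motifs in the promoter of Cdh1, the gene of the epithelial adhesion protein E-cadherin, and repress it. The replacement of E-cadherin by N-cadherin, from Cdh2, is called the cadherin switch, and vimentin, from Vim, is the intermediate filament of mesenchymal cells. Epcam encodes an epithelial adhesion protein. Tumours often hold mixed states in which epithelial and mesenchymal genes are expressed together.

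Promoter sequence was available in RefSeq tables (GRCm38.p6) for 6 of the 10 genes, and the 250 bases upstream of each start were searched for CACCTG or its reverse complement CAGGTG, the E-box form that SNAI and ZEB proteins recognise. This form is also counted in the general E-box CANNTG. The motif lay in the windows of Snai1 and Epcam and in none of those of Vim, Twist1, Prrx1 or Zeb2, the last with 4 windows. Of all 32851 promoter windows in the table, 17.2% held CACCTG or CAGGTG and 66.2% held CANNTG. The 2 windows with a match are shown because both genes were higher in sgLkb1 libraries. They run 5′ to 3′ on the plus strand and capitals mark the motif. The Snai1 window is chr2:167537945-167538194, with CACCTG starting 126 bases upstream of the start. The Epcam window is chr17:87635729-87635978, with CACCTG starting 187 bases and CAGGTG starting 19 bases upstream. A match describes the letters of the window and shows nothing about binding.
Snai1: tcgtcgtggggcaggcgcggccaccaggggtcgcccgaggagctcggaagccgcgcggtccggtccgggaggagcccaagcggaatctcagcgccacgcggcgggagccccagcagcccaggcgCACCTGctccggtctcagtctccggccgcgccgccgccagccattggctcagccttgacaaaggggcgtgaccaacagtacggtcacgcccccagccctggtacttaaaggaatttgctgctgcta
Epcam: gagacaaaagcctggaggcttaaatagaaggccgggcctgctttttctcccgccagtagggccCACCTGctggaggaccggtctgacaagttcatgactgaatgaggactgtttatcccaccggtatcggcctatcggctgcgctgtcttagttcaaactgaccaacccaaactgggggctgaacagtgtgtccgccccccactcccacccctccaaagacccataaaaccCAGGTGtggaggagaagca

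Libraries held 26007426 to 41729248 counts, and levels are given as CPM, counts relative to the scaled size of the library, of which 1 count was worth 0.0245 to 0.0405. The targeted gene Stk11 was at 33.4 to 82.7 CPM in sgNeo and 23.5 to 25.6 CPM in sgLkb1 libraries (log2 fold change -1.31, SE 0.30, adjusted p = 0.023 with edgeR), and of 6 fits lacking a library it passed only in that without sgNeo 2 (edgeR adjusted p at most 0.076 in the others). Exons of Stk11 and Cbarp overlap on opposite strands. All 11 markers of the lung tumour epithelium, Epcam and Cdh1 among them, were measured, with summed levels of 121855 to 142601 CPM in sgNeo and 22743 to 29765 CPM in sgLkb1 libraries. The surfactant genes Sftpc and Sftpa1 took most of the sgNeo sum. Of these markers 5 fell (Sftpc, Sftpb, Sftpa1, Muc1 and Nkx2-1) and 2 rose (Epcam and Krt7), beside 8.6% lower and 7.05% higher over all 15978 tested genes, and all but Epcam were picked for naming after their values were seen. The number that rose was 0 when sgNeo 1 or sgNeo 2 was dropped and 1 when sgNeo 3, sgLkb1 2 or sgLkb1 3 was.

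Across the 10 genes, Vim, Snai1 and Epcam rose in sgLkb1 and none fell. This is 3 of the 9 genes that passed the filter on low counts, beside 15.7% of all 15978 tested genes that passed in either direction and 7.05% that were higher. Snai2, Zeb1, Zeb2, Prrx1, Cdh1 and Cdh2 did not pass, and Twist1 was too low to be tested. Of the 9 tested genes, 7 had every sgLkb1 library above every sgNeo library, beside 16.3% of all tested genes, and the median log2 fold change was 1.33 against 0.018 over all tested genes. Because the genes had to reach the filter in some libraries, these counts cover the tested genes and not the whole list. The 10 genes were chosen with earlier results of these data known, so the shares are not independent of those results. In bulk RNA, more cells of a type and more RNA per cell cannot be told apart.

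**Figure D1:**
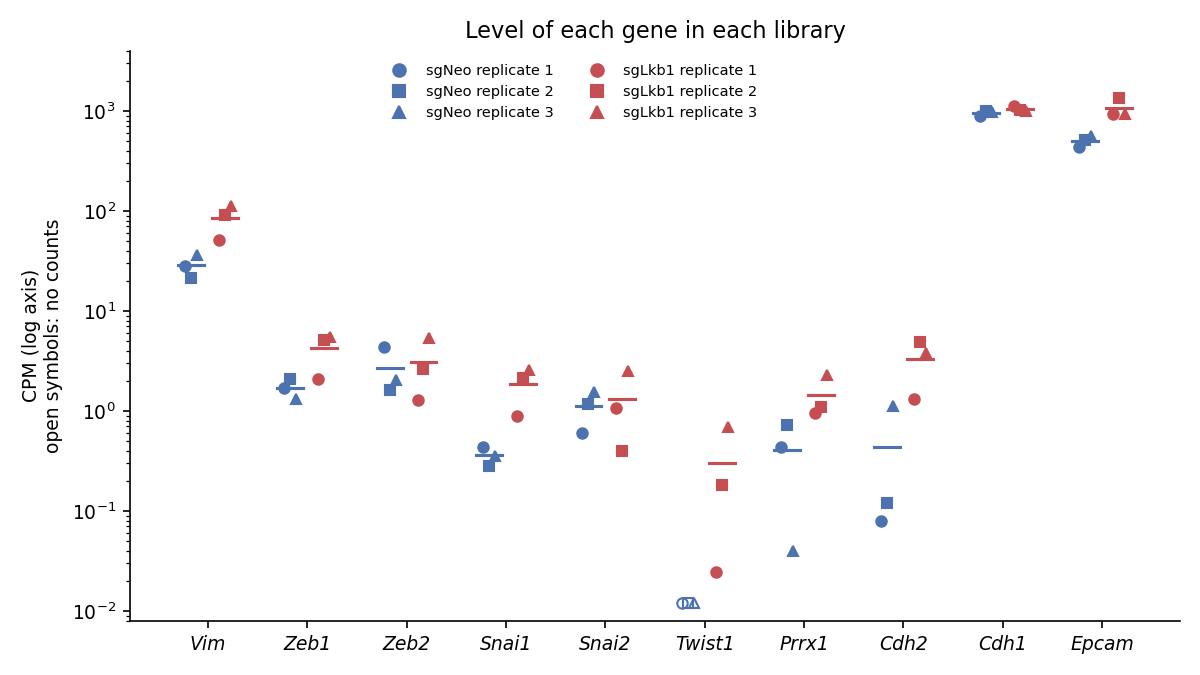
Level of the 10 genes in each library in CPM on a log axis, with group means as bars and open symbols for libraries with no counts. Cdh1 and Epcam lie between 436 and 1344 CPM, Vim between 21.6 and 112 CPM over all libraries, and the other genes below 6 CPM.

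Snai1 encodes SNAIL, a repressor of Cdh1. Its level was 0.44, 0.28 and 0.36 CPM in sgNeo, from 11, 7 and 9 counts. In sgLkb1 1, 2 and 3 it was 0.88, 2.13 and 2.58 CPM, from 36, 81 and 90 counts. The groups did not overlap, and sgLkb1 1 lay nearest to the sgNeo libraries. Mean levels were 0.36 ± 0.079 and 1.86 ± 0.88 CPM (SD, n = 3), and edgeR put the log2 fold change at 2.35 (SE 0.60, adjusted p = 0.033). Every fit lacking a library lost this call except that without sgLkb1 1 (edgeR adjusted p = 0.017), with adjusted p up to 0.13 without sgNeo 2 and log2 fold changes from 2.03 to 2.71. Snai1 occupies chr2:167538195-167542814 (GRCm38, plus strand).

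Snai2 encodes SLUG, the paralog of SNAIL, which also binds E-boxes. It was at 0.60, 1.17 and 1.55 CPM in sgNeo and at 1.08, 0.39 and 2.52 CPM in sgLkb1. The groups overlapped, with both the lowest and the highest value in sgLkb1. The log2 fold change was 0.26 (SE 0.73, adjusted p = 0.85 with edgeR) and turned to -0.60 without sgLkb1 3 and -0.04 without sgNeo 1.

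Zeb1, a repressor of epithelial genes, was at 1.68, 2.07 and 1.31 CPM in sgNeo. It was at 2.08, 5.17 and 5.48 CPM in sgLkb1. Library sgLkb1 1 lay just above sgNeo 2, at 2.08 against 2.07 CPM, and the other sgLkb1 libraries lay well above. Zeb1 did not pass (log2 fold change 1.33, SE 0.46, edgeR adjusted p = 0.094), but did without sgLkb1 1 (edgeR adjusted p = 0.025) and with DESeq2 (adjusted p = 0.036). Zeb2, the second ZEB repressor, was at 4.33, 1.62 and 2.03 CPM in sgNeo and 1.30, 2.62 and 5.39 CPM in sgLkb1. These groups overlapped throughout, with the lowest and the highest library both in sgLkb1. Its log2 fold change of 0.22 (SE 0.60, adjusted p = 0.84 with edgeR) became -0.46 without sgLkb1 3. Annotated exons of Zeb1 and Gm10125, and of Zeb2 and Zeb2os, overlap on opposite strands, and those partners held 29 and 7 counts over all libraries against 599 and 540 for Zeb1 and Zeb2.

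Twist1, whose protein directs mesoderm formation in the embryo, had no counts in any sgNeo library. It had 1, 7 and 24 counts in sgLkb1, or 0.024, 0.18 and 0.69 CPM. Most of the signal was therefore in sgLkb1 3. Against a floor of 3 counts over the sgNeo group, or 0.040 CPM, Twist1 pooled over the sgLkb1 libraries was at least 7.0-fold higher. This limit covers counting error only, and sgLkb1 1 alone, at 0.024 CPM, was below the floor. The limit became 2.52-fold without sgLkb1 3, 10.6-fold without sgLkb1 1 and 4.65-fold to 4.69-fold without any of the sgNeo libraries. With no filter on low counts Twist1 did not pass (edgeR adjusted p = 0.053). Prrx1, a homeobox factor of limb and skeletal mesenchyme, was at 0.44, 0.73 and 0.040 CPM in sgNeo and 0.95, 1.10 and 2.27 CPM in sgLkb1. All sgLkb1 libraries were above all sgNeo libraries, and sgNeo 3 held 1 count. Prrx1 did not pass (log2 fold change 1.83, SE 0.86, edgeR adjusted p = 0.19), also not in any fit that left out a library.

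Vim encodes the filament protein described above. Its level was 28.4, 21.6 and 36.2 CPM in sgNeo and 50.8, 92.2 and 112 CPM in sgLkb1. The groups did not overlap, and the lowest sgLkb1 library was again sgLkb1 1. The means of 28.7 ± 7.34 and 84.8 ± 31.04 CPM (SD, n = 3) differed by 1.56 on the log2 scale in edgeR (SE 0.31, adjusted p = 0.013). With a library left out it ranged from 1.30 to 1.84, and the call was lost without sgNeo 1 or sgNeo 2 (edgeR adjusted p = 0.053 and 0.063). Vim occupies chr2:13573927-13582826 (GRCm38, plus strand).

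Cdh2, the gene of N-cadherin, had 2, 3 and 28 counts in sgNeo and 54, 185 and 132 counts in sgLkb1. These are 0.080, 0.12 and 1.12 CPM against 1.32, 4.85 and 3.79 CPM. The groups did not overlap, although sgNeo 3 came close to sgLkb1 1 and stood far above the other sgNeo libraries. Cdh2 had the greatest fitted change of the 9 genes and did not pass (log2 fold change 2.91, SE 0.97, edgeR adjusted p = 0.081). Without sgNeo 3 it passed, with a log2 fold change of 4.98 (edgeR adjusted p = 0.016), and over the other fits lacking a library adjusted p was 0.062 to 0.22. It also passed with DESeq2 (adjusted p = 0.0088) and with no filter on low counts (edgeR adjusted p = 0.0014).

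Cdh1, the gene of E-cadherin, was at 881, 993 and 972 CPM in sgNeo and 1121, 1017 and 1005 CPM in sgLkb1. The sgLkb1 libraries all lay above the sgNeo libraries by a small margin, so no library showed lower Cdh1 with the Lkb1 mutation. The log2 fold change was 0.14 (SE 0.16, adjusted p = 0.60 with edgeR) and stayed between 0.086 and 0.19 in fits lacking a library. Cdh1 occupies chr8:106603351-106670246 (GRCm38, plus strand).

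Epcam was at 436, 510 and 556 CPM in sgNeo and 935, 1344 and 939.6 CPM in sgLkb1. Every sgLkb1 library was well above every sgNeo library, with sgLkb1 2 the highest. Group means were 501 ± 60.2 and 1073 ± 235 CPM (SD, n = 3), and edgeR put the log2 fold change at 1.10 (SE 0.21, adjusted p = 0.011). It lost its call without sgNeo 1 or sgNeo 2 (edgeR adjusted p = 0.056 and 0.059), with log2 fold changes between 0.94 and 1.19 over the left-out libraries. Epcam occupies chr17:87635979-87651129 (GRCm38, plus strand).

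**Figure D2:**
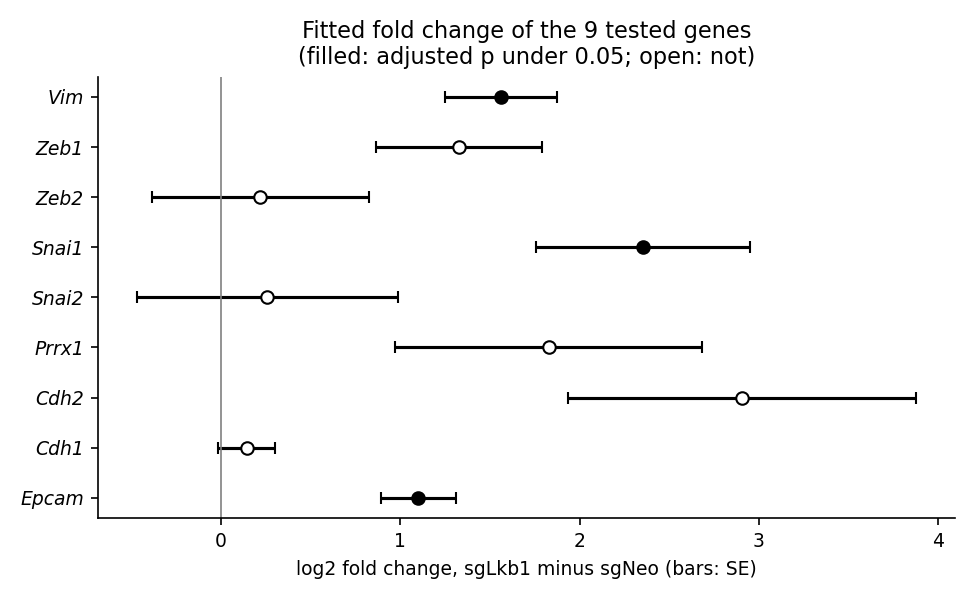
Fitted log2 fold change (sgLkb1 minus sgNeo) of the 9 tested genes with its SE as bars; filled points passed an adjusted p of 0.05 and open points did not. Vim, Snai1 and Epcam are filled, Cdh2 has the greatest value at 2.91 with an SE of 0.97, and Cdh1, Zeb2 and Snai2 lie near 0.

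**Figure D3:**
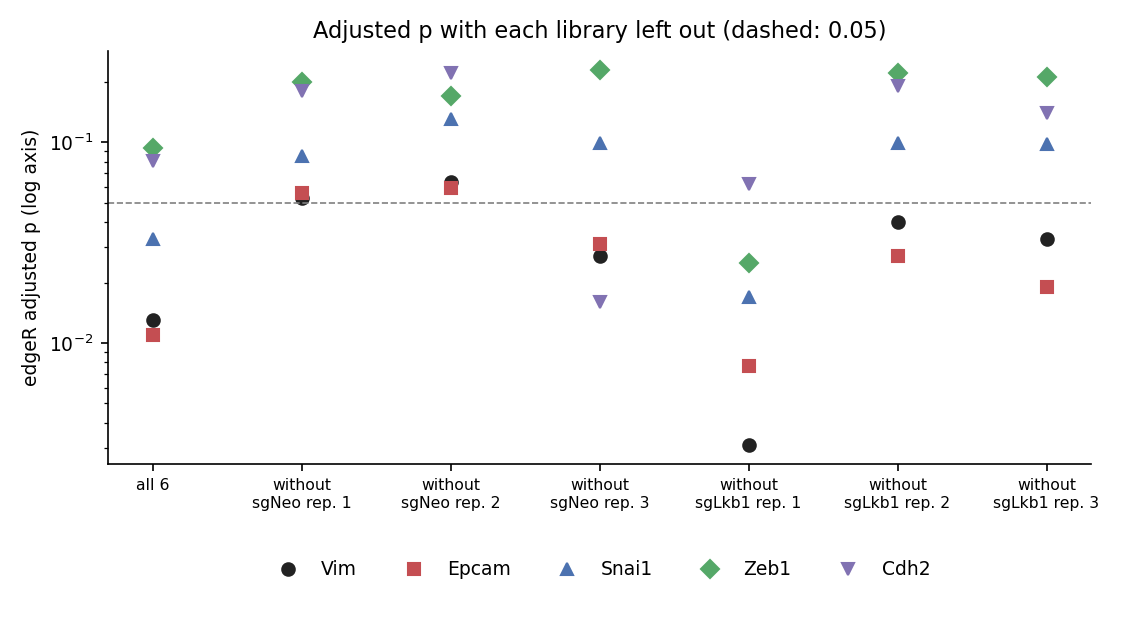
The edgeR adjusted p (log axis) of Vim, Epcam, Snai1, Zeb1 and Cdh2 with all 6 libraries and with each library left out; the dashed line is 0.05. Vim and Epcam cross the line without sgNeo 1 or sgNeo 2, Snai1 in all fits but the one without sgLkb1 1, and Cdh2 drops to 0.016 without sgNeo 3.

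The cadherin switch was described by the ratio of the 2 cadherins in each library, with 0.5 added to each count and no test, since the ratio combines genes of the list. The log2 ratio of Cdh2 to Cdh1 counts was -13.10, -12.77 and -9.74 in sgNeo and -9.72, -7.71 and -8.05 in sgLkb1. The groups did not overlap, but sgNeo 3 and sgLkb1 1 differed by far less than the spread within either group. The mean difference was 3.38 on the log2 scale. In every library Cdh1 counts exceeded Cdh2 counts, and no sgLkb1 library held less Cdh1 than any sgNeo library.

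For Vim to Cdh1 the log2 ratio was -4.95, -5.52 and -4.74 in sgNeo and -4.46, -3.46 and -3.17 in sgLkb1, again without overlap. Against Epcam, the log2 ratio of Vim was -3.94, -4.56 and -3.94 in sgNeo and -4.20, -3.87 and -3.07 in sgLkb1. Here the groups overlapped, and the mean difference of 0.43 was smaller than the SD of 0.58 among sgLkb1 libraries. Vim and Epcam were thus both higher in sgLkb1, and their ratio did not separate the groups.

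**Figure D4:**
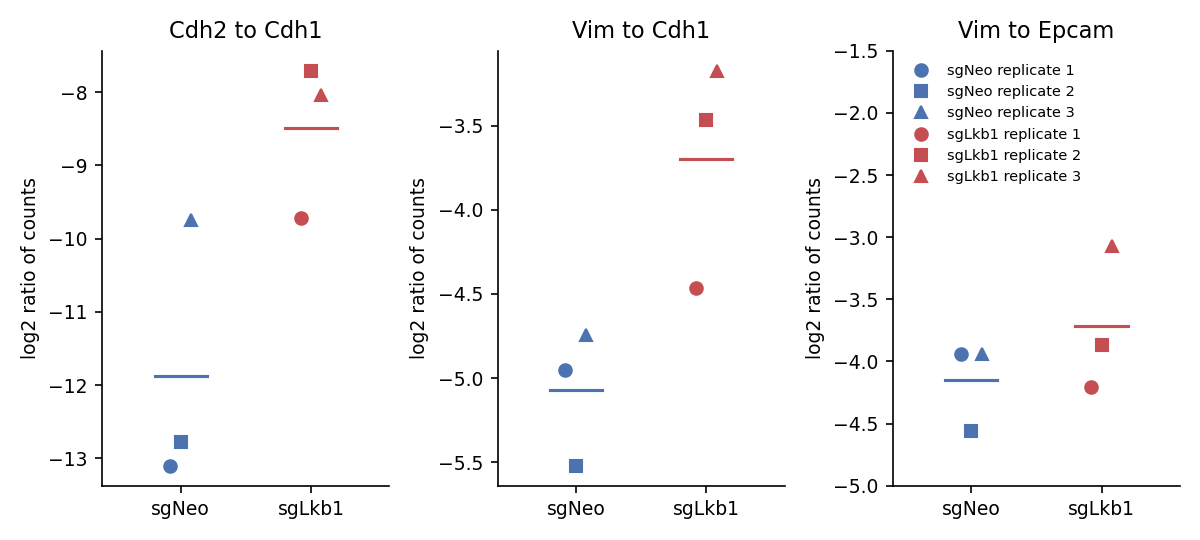
The log2 ratio of counts of Cdh2 to Cdh1, Vim to Cdh1 and Vim to Epcam in each library, with bars at group means and a separate axis for each ratio. The first 2 ratios separate sgNeo from sgLkb1 libraries, and the Vim to Epcam ratio, between -4.56 and -3.07, does not.

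Levels of different genes were compared per kilobase (kb) of annotated exon. The length joined all annotated exons of a gene, from 1621 bases for Snai1 to 19942 for Zeb2. It can exceed the length of a single transcript, which places such a gene lower. In CPM the sgNeo mean of Zeb2, 2.66, was above that of Snai2, 1.11. In sgNeo the order was Epcam at 228 ± 27.4, Cdh1 at 207 ± 12.99 and Vim at 6.06 ± 1.55 CPM per kb (SD, n = 3), followed by Snai2 at 0.55 ± 0.24. Then came Snai1, Zeb1, Zeb2, Cdh2 and Prrx1 with means from 0.22 down to 0.036 CPM per kb, and Twist1 with none. Epcam and Cdh1 overlapped in their library values, as did each neighbouring pair from Snai1 to Prrx1. In sgLkb1 Epcam, at 489 ± 107 CPM per kb, stood clear of Cdh1 at 229 ± 13.96. Vim was at 17.9 ± 6.54 CPM per kb, and Snai1 moved ahead of Snai2, at 1.15 ± 0.54 against 0.66 ± 0.54, although their values overlapped. The remaining genes ran from 0.41 CPM per kb for Zeb1 and Cdh2 to 0.13 for Prrx1, with overlap between all neighbours. The epithelial genes Epcam and Cdh1 stood at the top of the order in both groups, above Vim by a wide margin.

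Within sgLkb1 most of the mesenchymal genes were lowest in the same library and highest in the same library. How often all tested genes show this order was not counted, so it may not be particular to these genes. Of 8 genes other than Cdh1 and Epcam, 7 were lowest in sgLkb1 1, the exception being Snai2, and 7 were highest in sgLkb1 3, the exception being Cdh2. In sgNeo no such order was seen, with each library lowest for 2 or 3 of the 8 genes (Twist1 had no counts).

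Other genes of the transition were described from lists. These lists and the marker lists were also chosen with earlier results of these data known. Their shares beside the background are descriptions and not independent tests. Among 15 tested transcription factors of 20 listed, 5 rose and 1 fell, with a median log2 fold change of 0.57. The background here is 7.05% of all tested genes higher and 8.6% lower. Hmga2, a chromatin protein of embryonic tissue, was at 2.05, 1.54 and 2.59 CPM in sgNeo and 16.5, 35.1 and 16.4 CPM in sgLkb1 (edgeR adjusted p = 0.0014 at a log2 fold change of 3.46, SE 0.39). Sox9, a factor of embryonic lung tips and cartilage, was at 25.4 ± 5.47 and 79.7 ± 17.1 CPM, and Runx2, a bone factor, at 4.06 ± 0.98 and 15.2 ± 3.45 CPM (SD, n = 3). These 3 genes passed in each of 6 fits lacking a library. Tcf4 and Tcf12, whose E proteins pair with TWIST1, also rose. The gene that fell was Id2, an inhibitor of such E proteins, from 372 ± 53.8 to 165 ± 49.7 CPM (edgeR adjusted p = 0.014). Tcf3, Id1 and Id3 of the same list did not pass. Their log2 fold changes were 0.26, 0.061 and 0.80 (edgeR adjusted p = 0.59, 0.89 and 0.10), so Id3 did not go down with Id2. Without sgNeo 1 or sgNeo 2 no factor was called lower. Twist2, the paralog of Twist1, held counts in sgLkb1 3 only, at 0.20 CPM. Tcf3, Tcf4, Tcf12, Id1, Id2 and Id3 were picked for naming after their values were seen.

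Among 26 mesenchymal effectors, all tested, 14 rose and 1 fell, with a median log2 fold change of 2.17, beside 7.05% higher, 8.6% lower and a median of 0.018 over all tested genes. Itgb3, the integrin beta3 subunit, was at 3.41, 2.75 and 4.58 CPM in sgNeo and 64.9, 99.5 and 59.9 CPM in sgLkb1 (edgeR adjusted p = 0.00024, SE 0.29 around a log2 change of 4.38). Mmp14, a membrane-bound collagenase, was at 85.7 ± 10.6 and 345 ± 90.6 CPM (SD, n = 3), and both passed in all 6 fits lacking a library. Fibronectin, Fn1, was at 135, 111 and 171 CPM in sgNeo and 323, 1545 and 944 CPM in sgLkb1. Its groups did not overlap, but its call was lost without sgNeo 2 (edgeR adjusted p = 0.054). The effector that fell was Thbs1, thrombospondin 1, from 370.4 ± 64.2 to 217 ± 42.4 CPM, named after its value was seen. The number that rose was 2 without sgNeo 2, 5 without sgNeo 3 and 8 without sgLkb1 3, and none fell in any fit that left out a library.

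The TGF-beta pathway, a main inducer of the transition, had 1 of 15 members higher and none lower, a share close to the background. Tgfbr1, the type I receptor, was at 81.1, 83.5 and 81.2 CPM in sgNeo and 160, 143 and 102 CPM in sgLkb1 (edgeR adjusted p = 0.036, SE 0.19 around a log2 change of 0.72). It was not called in 4 of 6 fits lacking a library (edgeR adjusted p at most 0.13). The ligand Tgfb1 was at 1.44 ± 0.74 and 1.77 ± 0.67 CPM (SD, n = 3), with an edgeR adjusted p of 0.76. The count of higher members was 0 without any of the sgNeo libraries or sgLkb1 2, 2 without sgLkb1 3 and 3 without sgLkb1 1. Without sgLkb1 3, 2 members were called lower.

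Of 13 tested adherens junction genes, the partners of the cadherins, 2 rose and 2 fell, beside 7.05% and 8.6% of all tested genes, with a median log2 fold change of 0.12. Ctnnb1, the gene of beta-catenin, which binds the cadherin tail, was at 947, 939 and 896 CPM in sgNeo and 1703, 1539 and 1243 CPM in sgLkb1 (edgeR adjusted p = 0.038, SE 0.18 around a log2 change of 0.69). Cdh3, the gene of P-cadherin, rose from 2.14 ± 0.43 to 5.75 ± 1.19 CPM (SD, n = 3). Ctnnd2, a catenin best known from neurons, fell from 12.96 ± 2.44 to 2.57 ± 2.09 CPM, and Nectin1, an adhesion receptor, from 8.69 ± 1.78 to 3.43 ± 0.76 CPM. These 4 genes lost their calls in 3 to 5 of 6 fits lacking a library (edgeR adjusted p at most 0.14), and Ctnnd2 had a log2 fold change of -3.20 without sgLkb1 2 against -2.33 in all libraries. The number higher was 0 without any of the sgNeo libraries or sgLkb1 2 and 1 without sgLkb1 3. The number lower was 0 without sgNeo 1 or sgNeo 3 and 1 without sgNeo 2 or sgLkb1 1 or sgLkb1 2.

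None of 20 tight junction and polarity genes rose and 2 fell, beside 8.6% lower over all tested genes, with a median log2 fold change of -0.10. Pard3, a scaffold of the polarity complex, was at 65.3, 57.3 and 58.6 CPM in sgNeo and 34.03, 40.9 and 35.4 CPM in sgLkb1 (edgeR adjusted p = 0.015, SE 0.15 around a log2 change of -0.72). Cgn, the gene of cingulin, fell from 130.1 ± 5.43 to 83.1 ± 9.43 CPM (SD, n = 3). Both calls were lost without sgNeo 1 or sgNeo 2, with edgeR adjusted p up to 0.086, and 1 gene was lower without sgNeo 3 or sgLkb1 2, where Cgn was also not called. Claudin 1, Cldn1, was at 1.68 ± 1.77 and 3.70 ± 1.83 CPM, with an edgeR adjusted p of 0.35. Groups that did not overlap were found for 1 gene of this list with higher and 3 with lower levels in sgLkb1, beside 16.3% and 20.3% of all tested genes.

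Of 21 regulators of the epithelial state, 4 rose and 2 fell, beside 7.05% and 8.6% of all tested genes, with a median log2 fold change of -0.054. Those that fell were Nkx2-1, the lung lineage factor, and Elf5, and Klf4 also rose, all named after their values were seen. Esrp1, an epithelial splicing regulator that is lost in the transition, was at 38.5 ± 3.28 and 35.0 ± 2.20 CPM (SD, n = 3), with an edgeR adjusted p of 0.58. Elf3, an epithelial ETS factor, was at 168, 177 and 172 CPM in sgNeo and 294, 298 and 297 CPM in sgLkb1 (edgeR adjusted p = 0.0081, SE 0.14 around a log2 change of 0.78). Klf5, a Krueppel-like factor of gut and airway epithelium, rose from 183 ± 8.65 to 294 ± 13.8 CPM. Elf3 and Klf5 lost their calls without sgNeo 1 or sgNeo 2 (edgeR adjusted p up to 0.052 and 0.087). Prom1, a membrane glycoprotein of stem and progenitor cells, was at 7.18, 4.86 and 31.9 CPM in sgNeo and 324, 694 and 441 CPM in sgLkb1 (edgeR adjusted p = 0.0042, SE 0.75 around a log2 change of 5.05, which was 6.33 without sgNeo 3). The count that rose was 1 without sgNeo 1 or sgNeo 2. The count that fell was 0 without any of the sgNeo libraries or sgLkb1 3 and 1 without sgLkb1 2.

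Stromal cells also express genes of this list, Vim, Zeb1, Zeb2, Twist1, Prrx1 and Cdh2 among them. Markers of other cell types were therefore set beside all 8 mesenchymal genes, Snai1 and Snai2 included. The sort kept cells positive for GFP, a gate meant to leave out cells that do not come from the tumour. Of 14 tested fibroblast markers, 4 rose (Pdgfra and the collagens Col1a1, Col1a2 and Col3a1) and none fell, beside 7.05% higher and 8.6% lower over all tested genes. Inmt was at 2.41 to 3.03 CPM in sgNeo and 1.05 to 1.26 CPM in sgLkb1, without overlap, and did not pass (edgeR adjusted p = 0.057). Their summed level was 280 to 444 CPM in sgNeo and 395, 531 and 1609 CPM in sgLkb1, or 45.2 to 127 CPM and 187, 272 and 1435 CPM without Npnt, which made up most of the sgNeo sum. In sgNeo the sum without Npnt was highest in sgNeo 1, at 127 CPM against 52.2 and 45.2 CPM in sgNeo 2 and 3. Of the 8 mesenchymal genes, 2 were highest and 2 lowest in sgNeo 1, so the shared order described next was not seen in sgNeo. The sgLkb1 library with the highest fibroblast sum, sgLkb1 3, was also the library in which 7 of the 8 mesenchymal genes were highest. Library sgLkb1 1 had both the lowest fibroblast sum and the lowest level of 7 of those 8 genes. Pdgfra, a fibroblast receptor, was at 2.45, 3.54 and 17.9 CPM in sgLkb1 and at 0.36 to 1.16 CPM in sgNeo (edgeR adjusted p = 0.030 at a log2 change of 3.45, which was 2.03 and did not pass without sgLkb1 3). Pdgfrb did not pass (edgeR adjusted p = 0.33), and Fap, too low to be tested, was at 0 in every sgNeo library and at 0.12 to 0.89 CPM in sgLkb1. The count of called fibroblast markers was 7 without sgLkb1 1, 2 without sgNeo 1, 1 without sgLkb1 3 and 0 without sgNeo 2 or sgNeo 3. These collagens stand in both the fibroblast and the effector list. Col1a1, Col1a2 and Col3a1 were at 246, 288 and 624 CPM in sgLkb1 3 and at 75.3, 59.9 and 94.6 CPM in sgLkb1 2. The effector sums with them were 4505 and 4158 CPM in those libraries, so the order of libraries in the effector and fibroblast sums is not independent. Without sgLkb1 3, Vim passed (log2 fold change 1.30, edgeR adjusted p = 0.033). Snai1 (2.03), Zeb1 (1.08) and Cdh2 (2.77) had positive log2 fold changes there and did not pass, with edgeR adjusted p of 0.098, 0.21 and 0.14. The fibroblast sums without Npnt in sgLkb1 1 and sgLkb1 2, 187 and 272 CPM, were also above the 45.2 to 127 CPM of sgNeo. Leaving out sgLkb1 3 therefore does not remove the difference in this sum. Most of the sum in sgLkb1 1 and sgLkb1 2 came from Col1a1, Col1a2 and Col3a1, at 32.8, 43.0 and 76.7 CPM in sgLkb1 1. Whether the other fibroblast markers differ as a set without sgLkb1 3 was not tested. The part of fibroblast RNA in the levels of these genes was not tested.

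Of 7 tested mesothelial markers Msln, Aldh1a2 and Cpe rose, beside 7.05% higher over all tested genes, with summed levels of 182 to 478 CPM in sgNeo and 1002, 1771 and 1345 CPM in sgLkb1. Msln, the gene of mesothelin, which lung tumours can also express, was 813, 1275 and 1012 CPM of these sgLkb1 sums and was called except without sgNeo 2 (edgeR adjusted p = 0.011 in all libraries). Aldh1a2, which makes retinoic acid, was at 13.5, 138 and 57.0 CPM in sgLkb1 and at 0.41 to 2.77 CPM in sgNeo. Wt1, a factor of mesothelium, was at 0.34, 0.31 and 7.46 CPM in sgLkb1, with 3 counts in sgNeo 1 and none in the other sgNeo libraries. Msln, Aldh1a2 and Cpe were highest in sgLkb1 2. Upk3b, Upk1b, Lrrn4, Gpm6a and Rspo1, named after their values were seen, were highest in sgLkb1 3. They were at 5.39 to 26.7 CPM there and at 0.12 to 3.31 CPM in sgLkb1 1 and sgLkb1 2. Rspo1 was too low to be tested and the others did not pass (edgeR adjusted p from 0.059 to 0.11). The count of called markers was 8 without sgLkb1 1, where more of the 9 listed genes passed the filter, and 1 without sgNeo 2. Their part in the result was not tested.

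Of 13 endothelial markers Cdh5, Kdr and Emcn rose and Esam fell, beside the same 7.05% higher and 8.6% lower over all tested genes as for the lists that follow, with summed levels of 275 to 344 CPM in sgNeo and 165 to 292 CPM in sgLkb1 libraries. Esam, which fell from 211 ± 29.1 to 54.1 ± 23.5 CPM (SD, n = 3), made up most of the sgNeo sum. The sums without it were 69.9 to 118 CPM in sgNeo and 120.1, 129 and 211 CPM in sgLkb1. Cdh5, the gene of the endothelial VE-cadherin, rose from 3.82 ± 0.87 to 14.6 ± 4.15 CPM, with an edgeR adjusted p of 0.0053, and Pecam1 did not pass (edgeR adjusted p = 0.15). Pericyte and smooth muscle markers had 1 of 7 tested higher, Actg2 (edgeR adjusted p = 0.036), with sums of 12.6 to 23.7 CPM in sgNeo and 34.3, 51.6 and 61.7 CPM in sgLkb1. That count was 0 without sgNeo 2 or sgNeo 3 or sgLkb1 2 or sgLkb1 3 and 2 without sgLkb1 1, and Rgs5 and Cspg4 did not pass (edgeR adjusted p = 0.16 and 0.053). Leukocyte markers had 1 of 14 tested higher, the macrophage receptor gene Mrc1, and 1 lower, the B cell gene Cd79a, with sums of 57.6 to 92.9 CPM in sgNeo and 100.2 to 142 CPM in sgLkb1. Ptprc, which encodes the CD45 used in the sort, was at 7.23 ± 2.10 and 6.70 ± 3.24 CPM, and neither it nor Cd68 passed (edgeR adjusted p = 0.89 and 0.093). Without sgLkb1 2, 3 leukocyte markers were higher, and without sgNeo 1, 2 were. None was lower without sgNeo 1 or sgNeo 2 or sgLkb1 2 or sgLkb1 3. Cpe, Kdr, Emcn, Cd79a, Fap, Inmt, Npnt and the collagens were named after their values were seen. The part of endothelial, pericyte and leukocyte RNA in the levels of the 10 genes was not tested.

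**Figure D5:**
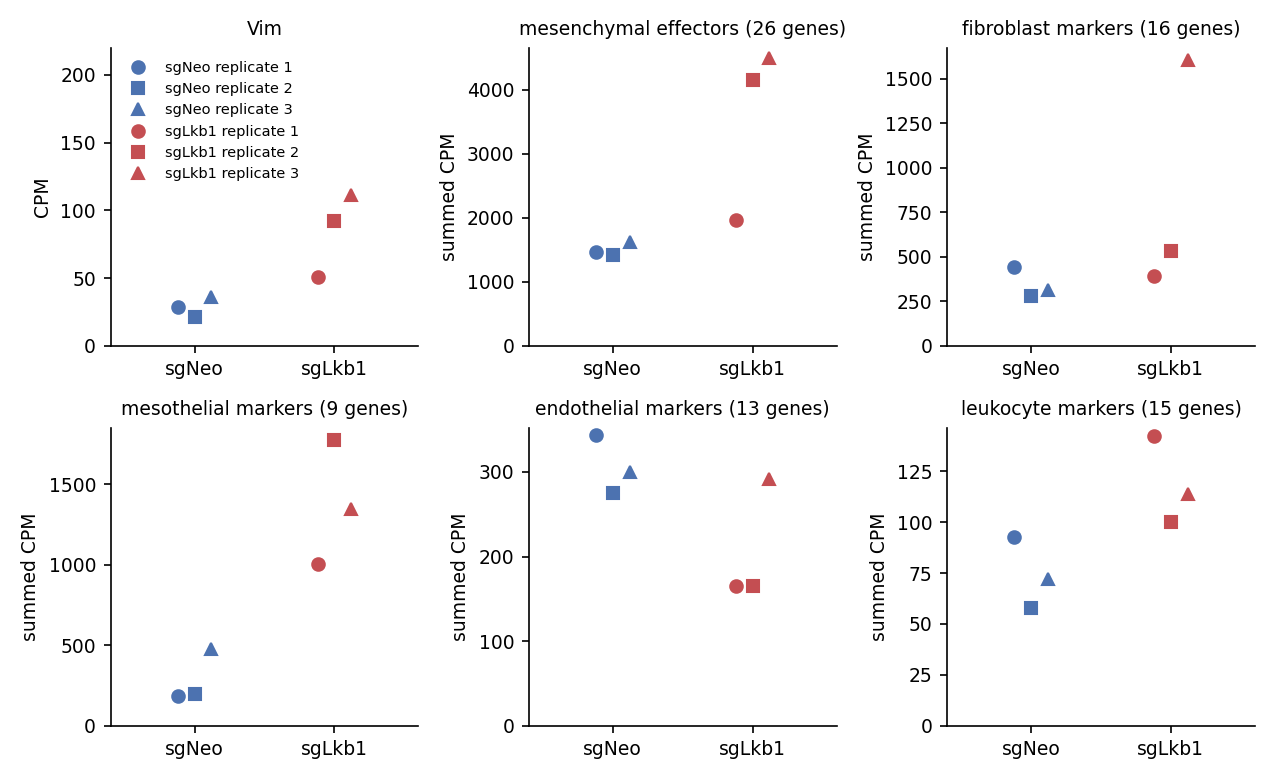
Level of Vim and summed level of 5 gene lists in each library, in CPM, each panel on its own axis from 0. In sgLkb1, Vim, the mesenchymal effectors and the fibroblast markers are highest in library 3 and lowest in library 1. Col1a1, Col1a2 and Col3a1 count in both the effector and the fibroblast sum. The mesothelial sum, most of which is Msln, is highest in library 2, whereas Wt1, Upk3b, Upk1b, Lrrn4, Gpm6a and Rspo1 are highest in library 3.

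Genes with the library profile most like that of 5 of the genes were found by the root mean square difference of log2 CPM, centred on the mean over the 6 libraries. This is a description, and all 6 libraries share the 2 genotypes. For Vim they were Tent5b, Tnni2 and Acta2, at differences of 0.20, 0.20 and 0.21 log2 units. For Zeb1 they were Bvht, Tbx4 and Gask1b, at 0.16, 0.16 and 0.17. Epcam was matched most closely, by Epb41l2, Tamm41 and Gmnn at 0.062, 0.094 and 0.098. Snai2 had Ccdc136, Trem2 and Ndrg4 at 0.27 to 0.37, and Cdh2 had Zdhhc15, Krt20 and Lor at 0.36 to 0.40. Krt20, a keratin of differentiated gut epithelium, was at 15.04, 16.97 and 72.9 CPM in sgNeo and 84.1, 582 and 256 CPM in sgLkb1. Like Cdh2, it was highest in sgNeo 3 and sgLkb1 2 within the groups.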

How the data were processed

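The authors deposited expected counts per gene for 6 libraries. Build GRCm38 and the tools FastQC, STAR, RSEM and DESeq2 are named in the submitters' processing notes. The sources used here state no version, strand setting or annotation release. Per the labels' protocols, libraries were made with Nextera XT. Deposited values of all 10 genes were whole numbers in every library.

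Values were rounded, filtered with filterByExpr (15978 genes left) and TMM-scaled, with edgeR 4.0.16 under R 4.3.3. The comparison of sgLkb1 with sgNeo used edgeR's quasi-likelihood test, two-sided, with Benjamini-Hochberg adjustment over all tested genes at 0.05. CPM are relative to scaled library sizes. Each SE was obtained as log2 fold change over root F, in absolute size. Floors cover counting error only. Exon lengths and positions came from GENCODE M21 (GRCm38). For Zeb2 and Stk11 that release holds another version of the gene ID.

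The 10 genes, the lists and the tests were chosen with earlier results of these data known. Named from each list were its first gene and the 3 lowest p among those called, or, for markers of other cells, the first 2 and the lowest p. Other genes of the lists are named as picked after their values were seen. Profile matches needed a mean of 1 CPM and used a prior count of 2. The marker named Pals1 in the list is Mpp5 in the table. No pair of replicates was identical. Alternatives were RLE scaling, other filters, DESeq2 1.42.0, a replicate block and each library left out.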

Additional observations from a re-analysis of the deposited data

How the results depend on the processing

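Between the genotypes 2501 genes passed, 3559 with DESeq2, 3440 with no filter on low counts, 2880 with the replicate block and 1129 to 2780 with a library left out (the count was 1325, 1129 and 1587 when sgNeo replicates 1, 2 and 3 were dropped in turn, and 1529 when sgLkb1 replicate 2 was). With no filter 55.7% of called genes were higher, against 45.1%. Of the 10 genes 3 passed, 5 with DESeq2 and 0 to 4 with a library left out (0 without sgNeo replicate 1 or 2). Snai1 and Prrx1 did not reach the filter of 1 CPM in 3 libraries, which left 2 called. Zeb2 and Snai2 changed sign: the log2 fold change ran, over fits lacking a library, from -0.46 to 0.76 for Zeb2, with -0.04 without sgNeo replicate 2, and from -0.60 to 0.73 for Snai2, with -0.04 without sgNeo replicate 1; the cause was not tested. Over the 9 tested genes and all alternatives, 77 values kept their side of the threshold and direction, 10 lost a call, 6 gained one and 4 turned, all in Zeb2 and Snai2. The Cdh2 to Cdh1 difference of 3.38 was 2.49 with an added count of 5 and 2.77 to 4.45 with a library left out. Those of Vim to Cdh1 and Vim to Epcam were 1.11 to 1.76 and 0.11 to 0.68. RLE scaling moved the median gene by 0.029.

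Replicate numbers are shared between the groups. Deviations of same-numbered libraries correlated at 0.14, -0.021 and 0.11, and those of differently numbered libraries at -0.17 to 0.089. These values do not settle whether same-numbered libraries are paired, and the main fit used no replicate block. With the replicate block 3 of the 10 genes passed, Cdh2 among them (edgeR adjusted p = 0.030) and Snai1 not (edgeR adjusted p = 0.066), and 0 fibroblast markers rose. Snai1, Twist1, Prrx1 and Cdh2 held 0 to 28 counts in sgNeo libraries.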
